A study of Mus musculus with 6 samples.

Results

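Folate and one-carbon metabolism was followed through 8 enzymes, Aldh1l1, Aldh1l2, Shmt1, Shmt2, Mthfd1, Mthfd1l, Mthfd2 and Tyms, among the 29333 genes of a table that compared testes of Hsf5 knockout mice with testes of control mice at postnatal day 16. The rows were found by gene symbol. The enzymes were chosen by their role in folate chemistry with the knockout-to-control differences of this table already known, and the difference of Aldh1l1 was one of those in view. Their differences between the groups are therefore given as a description and support nothing. How many of them passed the test over all genes is counted once, beside the share of all genes that did, and nothing is read from that count. Each enzyme had 1 row, and all 8 passed the filter of a mean of at least 10 normalised reads that left 17480 genes. The control group is labelled wild type, and the design text also allows Hsf5 heterozygotes in it. The other group is labelled Hsf5 knockout, and Hsf5 is a heat shock factor family gene known from spermatocytes. Each group has 3 samples by its labels. The table holds values for control 1, control 2, knockout 1 and knockout 3 only, and all of these were analysed here. Strain, knockout allele and whether each sample was a separate animal are not stated. Pairs of values below follow that order of libraries, and they are normalised read counts unless another quantity is named.

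Folate carries single carbon units between serine, glycine, formate, purines, thymidylate and methionine. The same steps run in the cytosol and in the mitochondrion on separate enzymes: serine hydroxymethyltransferase takes the carbon from serine, the MTHFD enzymes change its oxidation state, and 10-formyltetrahydrofolate dehydrogenase oxidises it to carbon dioxide while making NADPH. Thymidylate synthase spends a folate carbon on the DNA base thymine, so it is in demand where cells replicate DNA, as spermatogonia and preleptotene spermatocytes do in the young testis.

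Summed over the genes of the table, the libraries held between 16209093 and 18557898 counted reads. Whole testis was sequenced, so a larger share of cells of one type and more RNA per cell cannot be told apart in any value below. Markers of the testis cell types were present: the summed normalised counts of 16 pachytene spermatocyte markers lay between 16842 and 92740, those of 20 Sertoli cell markers between 112551 and 141356, and those of the 4 epididymis markers in the table at 8.92 or less. The targeted gene Hsf5 stood at 2541 and 3147 in the controls and at 1926 and 1602 in the knockouts, so both libraries labelled knockout kept reads of it. The controls differed from each other more than the knockouts did, with a rank correlation over genes of 0.986 against 0.993. The limma test (Benjamini-Hochberg adjusted p under 0.05) called 573 genes higher in the knockouts and 2366 lower. The split was 1511 higher and 2007 lower when libraries were scaled to their totals, and 60 higher and 4546 lower when they were scaled to the summed Sertoli markers.

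Aldh1l1 was the one enzyme of the 8 with a large difference. Aldh1l1 (ENSMUSG00000030088.16, chromosome 6) encodes the cytosolic 10-formyltetrahydrofolate dehydrogenase, which removes one-carbon units from the folate pool. It stood at 215 and 274 in the controls and at 548 and 485 in the knockouts. Both knockout libraries lay above both controls, and the lowest knockout value exceeded the highest control value by more than the distance between the controls. The mean went from 244 ± 41.3 to 516 ± 45.0 (SD, n = 2), which was 2.11-fold, and the fitted difference was 1.08 on the log2(value + 1) scale (SE 0.16). For Aldh1l1 the authors' deposited table gives 1.08 on the log2 scale (SE 0.217). A larger positive fitted difference was found for 181 of the 17480 genes, or 1.04%, a rank given as a description because the choice of Aldh1l1 had it in view. With 1 library left out at a time, the log2 difference lay between 0.91 without control 1 and 1.26 without control 2. It was 1.19 with libraries scaled to their totals and 0.84 with libraries scaled to the summed Sertoli markers, scalings that moved the median of all tested genes from 0.01 to 0.12 and to -0.23. In GENCODE M21 the exons of Aldh1l1 touch those of Gm15756, an antisense gene, and of Gm45901, a long noncoding RNA on the same strand. Neither was analysed here, and without a stated strand setting their reads could not be told apart from those of Aldh1l1.

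The promoter of Aldh1l1 is shown because Aldh1l1 carried the difference, and those of Shmt2 and Tyms because they were the 2 of 7 enzyme promoters that held a pair of heat shock element units, the sequence unit that heat shock factors are known to bind. Each runs 5′ to 3′ on the strand of the gene, from 250 bases before the start to 50 bases from it on, from RefSeq on GRCm38.p6, a different build from the mm39 that the submitters' processing notes name. The Aldh1l1 window is chr6:90550543-90550842 on the plus strand, the Shmt2 window chr10:127522395-127522694 on the minus strand and the Tyms window chr5:30073576-30073875 on the minus strand. Capitals mark CCAAT or its reverse complement in Aldh1l1, a tail-to-tail unit pair (TTCNNGAA) in Shmt2, and an E-box (CACGTG) followed by a head-to-head unit pair (GAANNTTC) in Tyms.
Aldh1l1: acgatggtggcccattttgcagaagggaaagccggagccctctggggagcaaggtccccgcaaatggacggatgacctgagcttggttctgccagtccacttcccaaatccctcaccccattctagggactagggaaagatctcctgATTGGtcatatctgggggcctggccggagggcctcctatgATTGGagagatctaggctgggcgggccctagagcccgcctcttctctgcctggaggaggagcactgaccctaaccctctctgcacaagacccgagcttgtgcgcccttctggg
Shmt2: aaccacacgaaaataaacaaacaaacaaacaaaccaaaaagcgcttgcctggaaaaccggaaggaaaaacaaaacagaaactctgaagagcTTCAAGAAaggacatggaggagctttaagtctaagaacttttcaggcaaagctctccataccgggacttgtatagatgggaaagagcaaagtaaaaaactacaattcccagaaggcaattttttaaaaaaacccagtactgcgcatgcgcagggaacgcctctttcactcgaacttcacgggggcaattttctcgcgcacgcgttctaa
Tyms: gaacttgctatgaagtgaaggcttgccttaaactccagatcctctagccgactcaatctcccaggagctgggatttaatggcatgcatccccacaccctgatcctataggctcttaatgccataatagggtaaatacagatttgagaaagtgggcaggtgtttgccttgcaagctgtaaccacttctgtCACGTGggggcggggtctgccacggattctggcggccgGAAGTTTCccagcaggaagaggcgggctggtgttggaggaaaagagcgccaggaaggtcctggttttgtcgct
Aldh1l1 held CCAAT at 2 places, which start 103 and 63 bases before the gene start. The search found in its window neither pair of heat shock units, nor the E-box, the C/EBP-ATF element (TGATGNAA) or the E2F site (TTTNGCGC). The unit pair of Shmt2 starts 159 bases before the start and that of Tyms 23 bases before it. Both strands of all 32851 promoters in the table were searched: 37.4% held CCAAT, 7.86% the head-to-head pair, 8.52% the tail-to-tail pair, 7.15% the E-box, 3.97% the C/EBP-ATF element and 1.38% the E2F site. CCAAT was in 4 of the 7 enzyme promoters (Aldh1l1, Mthfd1, Mthfd2 and Shmt1), while the C/EBP-ATF element and the E2F site were in none. Matches of these lengths are descriptions of the letters in the window and do not show binding. Whether HSF5 itself binds such a unit pair was not tested here.

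**Figure D1:**
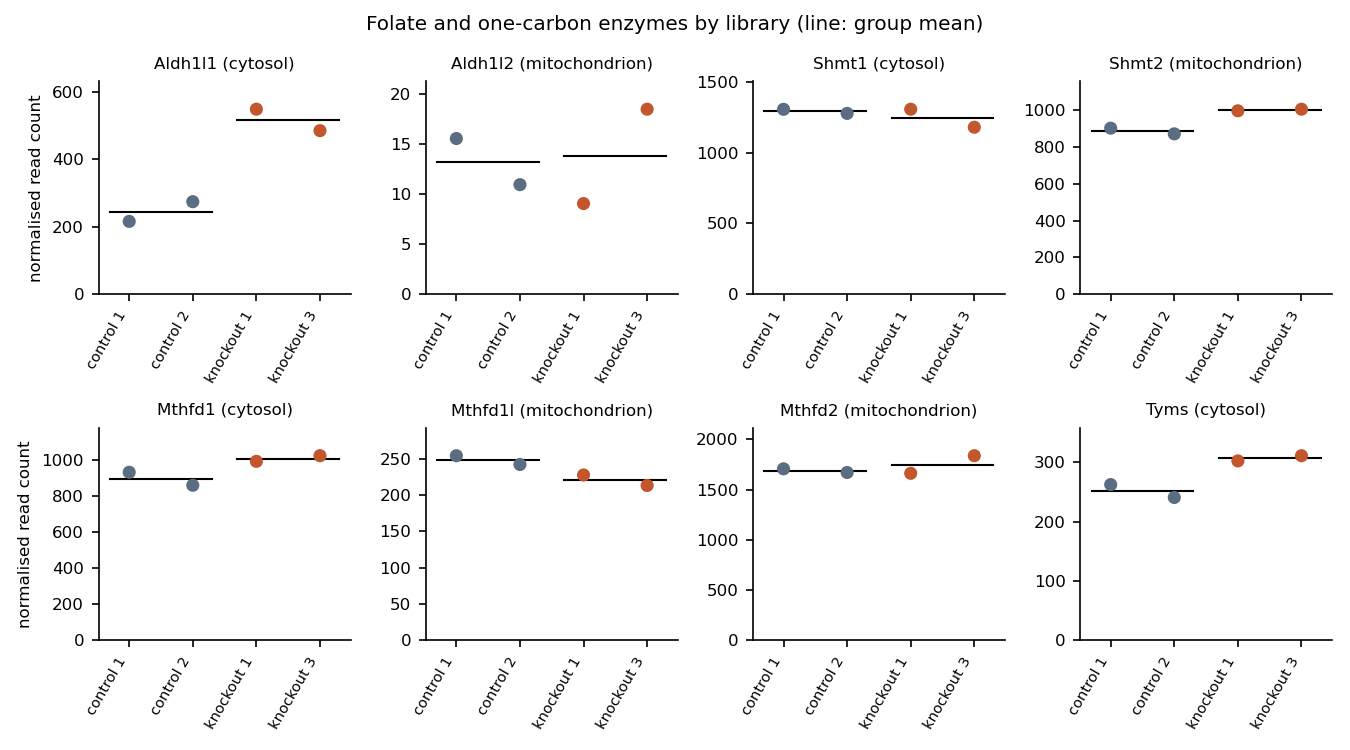
Normalised read count (vertical axis, from 0, with its own range in each panel) of the 8 enzymes in control 1, control 2, knockout 1 and knockout 3, with a line at each group mean and the compartment of the enzyme in the panel title. Aldh1l1 stands at 215 and 274 in the controls and at 548 and 485 in the knockouts, while the other 7 panels show groups that overlap or lie close together.

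Aldh1l2 (ENSMUSG00000020256.15, chromosome 10), the mitochondrial counterpart of Aldh1l1, was counted in few reads. The controls had 16 and 11 reads and the knockouts 9 and 18. The lowest and the highest value both came from knockout libraries, so the groups overlapped. The fitted log2 difference was -0.01 (SE 0.55), and it moved between -0.48 without knockout 3 and 0.47 without knockout 1. A difference between the groups was not detectable at this depth. Its exons also touch those of D10Wsu102e on the opposite strand, a gene with a mean normalised count of 2302 in the authors' deposited table, and the few Aldh1l2 reads could in part belong to it.

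The serine hydroxymethyltransferases, which feed carbon from serine into the folate pool and release glycine, differed little between the groups. Shmt1 (ENSMUSG00000020534.15, chromosome 11), the cytosolic enzyme, stood at 1308 and 1279 in the controls and at 1309 and 1181 in the knockouts. Its groups overlapped, with knockout 1 the highest of the 4 libraries and knockout 3 the lowest. The fitted log2 difference of Shmt1 was -0.06 (SE 0.09), and it was 0.05 with libraries scaled to their totals, -0.31 with scaling to the summed Sertoli markers and 0.02 without knockout 3. Shmt2 (ENSMUSG00000025403.6, chromosome 10), the mitochondrial enzyme, stood at 904 and 873 in the controls and at 998 and 1007 in the knockouts. Its groups did not overlap, and the mean went from 888 ± 21.9 to 1003 ± 6.22 (SD, n = 2), a log2 difference of 0.17 (SE 0.09) that was -0.07 with scaling to the summed Sertoli markers. Exons of Shmt1 touch those of Smcr8 and exons of Shmt2 those of Ndufa4l2, both on the opposite strand. Smcr8 had a mean of 1030 in the authors' deposited table and a log2 difference of -0.05 there. Ndufa4l2 had a mean of 71.5 and a log2 difference of -1.14 there, opposite in sign to that of Shmt2. Without a stated strand setting, reads from the exons that touch could not be told apart.

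Of the MTHFD enzymes, Mthfd1 (ENSMUSG00000021048.8, chromosome 12) is the cytosolic trifunctional enzyme that links formate, 10-formyl, methenyl and methylene folates. It stood at 931 and 859 in the controls and at 991 and 1022 in the knockouts. The groups did not overlap, with a log2 difference of 0.17 (SE 0.10) that was -0.08 with scaling to the summed Sertoli markers. Mthfd2 (ENSMUSG00000005667.9, chromosome 6), the mitochondrial dehydrogenase and cyclohydrolase, stood at 1706 and 1670 in the controls and at 1662 and 1837 in the knockouts. The groups of Mthfd2 overlapped, and its log2 difference of 0.05 (SE 0.09) was -0.02 without knockout 3 and -0.20 with scaling to the summed Sertoli markers. Mthfd1l (ENSMUSG00000040675.18, chromosome 10), the mitochondrial synthetase that releases formate for export to the cytosol, had the lowest fitted difference of the 8. It stood at 254 and 242 in the controls and at 228 and 213 in the knockouts. These groups did not overlap, and the log2 difference was -0.17 (SE 0.15), between -0.22 and -0.12 with each library left out and between -0.42 and -0.06 over the scalings.

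Tyms (ENSMUSG00000025747.13, chromosome 5), thymidylate synthase, stood at 263 and 241 in the controls and at 303 and 311 in the knockouts. The knockouts lay above the controls, the mean went from 252 ± 15.4 to 307 ± 6.19 (SD, n = 2), and the log2 difference was 0.29 (SE 0.15). This was the largest difference after that of Aldh1l1. With scaling to the summed Sertoli markers the log2 difference of Tyms was 0.04. A pseudogene copy, Tyms-ps, is annotated in GENCODE M21, and how reads shared with such a copy were counted is not stated, so the level of Tyms is uncertain to that extent.

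**Figure D2:**
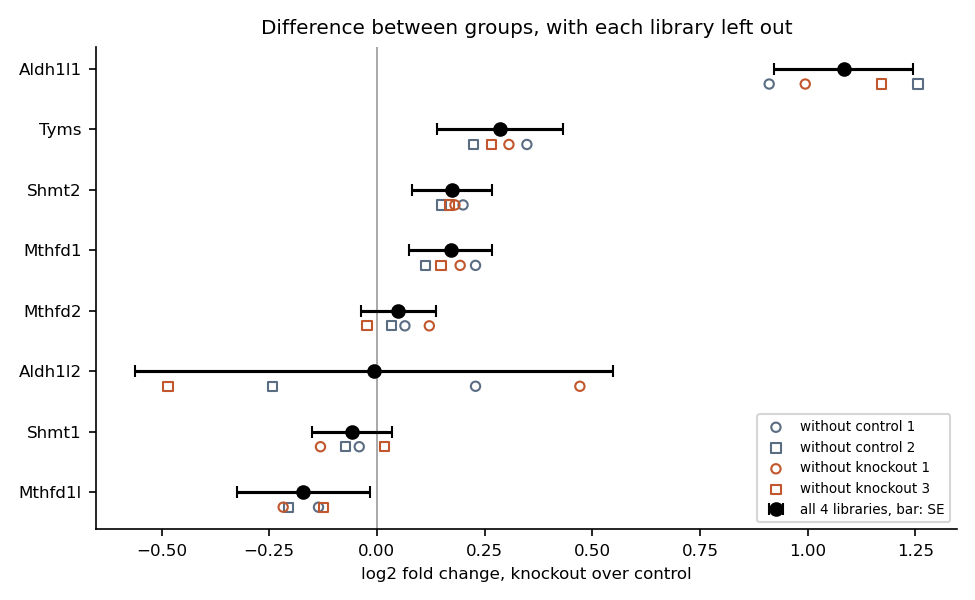
Log2 difference of knockout over control (horizontal axis) for the 8 enzymes, in order of size. Filled circles are the fit to all 4 libraries with a bar of 1 SE on each side, and open symbols are the fits without control 1, control 2, knockout 1 or knockout 3. Aldh1l1 lies between 0.91 and 1.26 in all of these fits, and Aldh1l2, with the fewest reads, has the widest bar (SE 0.55).

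Among the 8 enzymes, limma called 1 higher (Aldh1l1) and 0 lower. Over all tested genes 3.28% were called higher and 13.5% lower. The authors' deposited table also calls Aldh1l1 and no other of the 8, where 2.26% of the genes with an adjusted p are called higher. At an unadjusted p under 0.05, limma likewise marked Aldh1l1 and none of the others. Both knockout libraries lay above both controls for 4 enzymes (Aldh1l1, Mthfd1, Shmt2 and Tyms), below them for 1 (Mthfd1l), and overlapped for 3. Over all tested genes 29.8% were separated upward and 31.9% downward, so separation of this kind is common in these libraries. The median log2 difference was 0.11 over the 8 enzymes and 0.01 over all tested genes. Since the choice of these enzymes used the same comparison, nothing is read from these counts.

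Levels were compared between enzymes per kilobase of exon, with exon lengths from GENCODE M21, since the sources do not name the annotation release behind the counts. On that scale, with the mean of the 4 libraries, Mthfd2 was the most abundant at 493 normalised reads per kilobase. Shmt1 at 327 and Shmt2 at 304 followed, and their ranges over libraries overlapped. Mthfd1 stood at 214 and Aldh1l1 at 84.2. Mthfd1l at 52.8 and Tyms at 45.9 overlapped in range, and Aldh1l2 was lowest at 1.80. The length used counts every base in an exon of any annotated transcript, 6089 bases for Tyms and 4435 for Mthfd1l. Which transcripts the reads came from was not tested. A gene whose main transcript is much shorter than this length is placed too low. The order of Aldh1l1 and Mthfd1l differed between the controls. At 47.7 per kilobase in control 1 Aldh1l1 lay below Mthfd1l at 57.3, and at 60.6 in control 2 it lay just above Mthfd1l at 54.6. In the knockouts it stood at 121 and 107 against 51.3 and 48.0 for Mthfd1l. Other enzymes changed order too. Shmt1 lay below Shmt2 in knockout 3 alone, at 304 against 324. Tyms lay above Mthfd1l in knockout 3 alone, at 51.1 against 48.0.

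Ratios of 2 enzymes within a library do not depend on how libraries are scaled. The ratio of Aldh1l1 to Mthfd1, the enzymes that consume and supply cytosolic 10-formyltetrahydrofolate, was 0.231 in control 1 and 0.319 in control 2, and 0.553 in knockout 1 and 0.474 in knockout 3. The knockout ratios lay above both controls, with a difference in mean log2 ratio of 0.92. The ratio of Aldh1l1 to Shmt1 went from 0.165 and 0.214 in the controls to 0.419 and 0.410 in the knockouts. The ratio of cytosolic Shmt1 to mitochondrial Shmt2 was 1.45 and 1.47 in the controls and 1.31 and 1.17 in the knockouts, a difference in mean log2 ratio of -0.23. The controls agreed closely here, the knockouts less so, and the groups did not overlap. In the ratio of Mthfd2 to Mthfd1l, both mitochondrial, the controls stood at 6.72 and 6.90 and the knockouts at 7.30 and 8.62. These ratios are of normalised counts and not per kilobase, so their differences between libraries can be read but not their size, and they come from the same contrast as the choice of the enzymes.

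Markers of the cell types in the testis moved between the same groups. Over all tested genes limma called 3.28% higher and 13.5% lower, and the counts of called markers stand beside these shares. Pachytene spermatocyte markers were called lower in 15 of 16 members and summed to 60019 and 92740 in the controls against 21060 and 16842 in the knockouts. Among them Ldhc, the germ cell lactate dehydrogenase, fell by 4.01 on the log2 scale, Ybx2, an RNA-binding protein of germ cells, by 1.5, and Hspa2, a testis chaperone, by 1.39. Sertoli cell markers were called higher in 5 of 20 members, with a median log2 difference of 0.26, and summed to 119945 and 112551 in the controls against 141356 and 134766 in the knockouts. Of the 3 most abundant, Aard rose by 0.40 and Cldn11, a tight junction protein, by 0.32, and the difference of 0.20 for Clu was not called (limma Benjamini-Hochberg adjusted p = 0.0881). Aard lost its call without control 2 (limma adjusted p = 0.187), and Cldn11 did so with each library left out (limma adjusted p from 0.0563 to 0.164). Spermatogonial markers were called higher in 4 of 16 members and lower in 2, with a median log2 difference of 0.24 and 14 of 16 above 0. Their sum was 30259 and 29014 in the controls and 28328 and 27196 in the knockouts, but without Ddx4, the most abundant member, it was 19765 and 17373 in the controls and 21689 and 20921 in the knockouts, a sum added after seeing the data. Of these Dmrt1 rose by 0.37 and Uchl1 by 0.28, while the germ cell helicase Ddx4, which later germ cells also express, fell by 0.78. The other member called lower was Id4, at 1194 and 1322 in the controls and 772 and 572 in the knockouts. Its log2 difference of -0.92 (SE 0.15) was the largest fall in the list, and it was named after its values were seen. Dmrt1 was called with control 1 left out and with no other library left out, and Uchl1 in none of these 4 fits (limma adjusted p from 0.0535 to 0.246), while the call of Ddx4 held in each. Red blood cell markers were called higher in 3 of 5 tested members and summed to 1452 and 1207 in the controls against 1855 and 2321 in the knockouts. Without control 2, limma called 0 markers of any list higher, with 13 at an unadjusted p under 0.05. No marker with a row in the table was at 0 in every library.

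No single tested marker in these lists had a higher positive difference than Aldh1l1, while several pachytene markers had larger negative ones. The highest was the globin gene Hbb-bt at 0.92 (SE 0.22), beside 1.08 (SE 0.16) for Aldh1l1. The highest Sertoli marker was Gdnf at 0.58 (SE 0.26). Aldh1l1 was chosen with its difference in view, so nothing is read from this order. Aldh1l1 was higher in control 2 than in control 1 (274 against 215), and higher in knockout 1 than in knockout 3 (548 against 485). The Sertoli sum was lower in control 2 than in control 1, and the pachytene sum higher. The Leydig sum was 7368 in control 1 and 11195 in control 2, and 9478 in knockout 1 and 7311 in knockout 3. These orders set 1 library against another and were not tested. Leydig, myoid, macrophage and endothelial markers had 1, 0, 0 and 0 members called by limma of 10, 7, 8 and 8 tested, with 3, 0, 1 and 0 at an unadjusted p under 0.05 and none called in the authors' deposited table. The Leydig call was Nr5a1, higher at 0.27, while 2 of the 10 Leydig markers were above 0 and the median was -0.20. Leydig markers could vary widely within a group: Star stood at 444 and 1408 in the controls and at 1112 and 464 in the knockouts. The early prophase list had 2 of 14 members called lower (14.3%) and the spermatid list 1 of 5 (20%), beside 13.5% of all tested genes. No member of the epididymis list was abundant enough to be tested. The part of cell composition in the difference of Aldh1l1 was not tested.

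**Figure D3:**
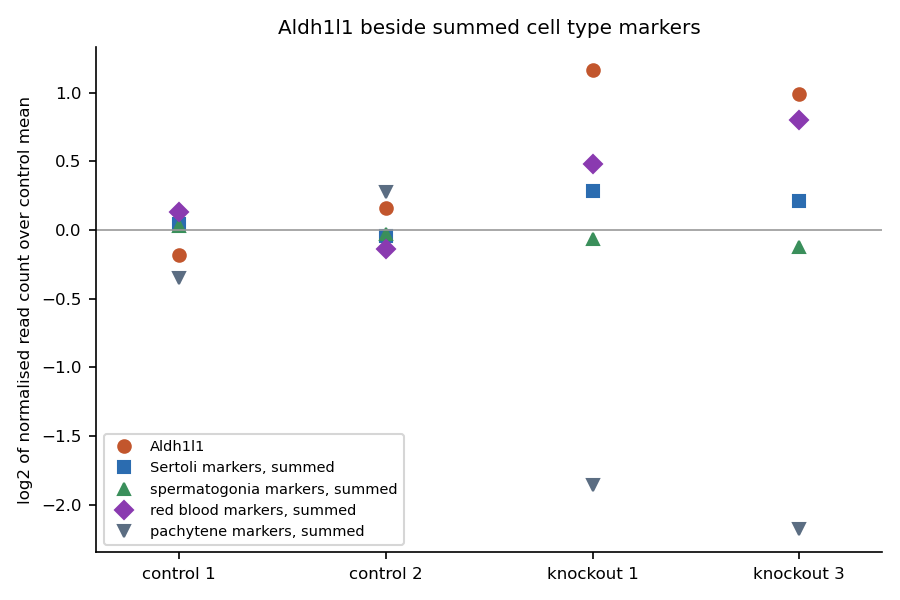
Log2 of the normalised read count over the mean of the 2 controls (vertical axis) in each library (horizontal axis) for Aldh1l1 and for the summed Sertoli, spermatogonial, red blood cell and pachytene markers. Aldh1l1 is the highest symbol in both knockout libraries and the pachytene sum the lowest, and in the controls Aldh1l1 is lower in control 1 than in control 2.

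The genes whose values over the 4 libraries were most like those of Aldh1l1, by Euclidean distance of centred log2 values, were low in abundance. They were Gsc2, a homeobox gene (distance 0.12, normalised counts 13.6 and 16.9 in the controls and 32.1 and 30.7 in the knockouts), Igf2os, an antisense RNA of the Igf2 locus (0.157, 9.69 and 11.9 against 27.1 and 20.5), and Ctcflos (0.157, 28.1 and 31.7 against 69.2 and 65.6). Of these 3, Ctcflos alone was called by limma. The genes most like Mthfd1l were Znhit6 (distance 0.015), Nudt21 (0.016), a factor of mRNA 3′ end processing, and Top2a (0.018), the topoisomerase of dividing cells, which stood at 11294 and 10785 in the controls and 10030 and 9362 in the knockouts. None of these 3 was called. With 4 libraries, such likeness is a description and nearly every pattern has close neighbours.

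Around the 8 enzymes, 122 genes of 9 neighbouring pathways were listed by known function, and 116 were tested. Limma called 8 of them higher and 7 lower, or 6.90% and 6.03%, beside 3.28% and 13.5% over all tested genes, and their median log2 difference was 0.08. The split was 15 higher and 5 lower with scaling to library totals and 1 higher and 25 lower with scaling to the summed Sertoli markers. The shares of 3.28% and 13.5% over all tested genes also stand beside the counts of each list below. Of the 15 called genes, Ddit4 alone was called in each of the fits that left out 1 library. Without control 2 the other 14 calls were lost, without knockout 3 there were 13 lost, without knockout 1 there were 12, and without control 1 there were 6.

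The steps closest to the 8 enzymes held no call. Folate uptake and polyglutamation genes had 0 of 7 members called by limma, 0 at an unadjusted p under 0.05 and 0 in the authors' deposited table, with a median log2 difference of 0.17. Folr1, a folate receptor, stood at 712 and 780 in the controls and at 734 and 715 in the knockouts, a log2 difference of -0.04 (SE 0.11), so its groups overlapped. Slc25a32, the mitochondrial folate carrier, stood at 600 and 631 in the controls and at 750 and 667 in the knockouts, a log2 difference of 0.20 (SE 0.11) that was not called (limma adjusted p = 0.272). The other folate interconversion and glycine cleavage genes had 0 of 10 tested members called, with 1 at an unadjusted p under 0.05 and 0 called in the authors' deposited table. That member was Dld, a subunit shared by the glycine cleavage system and other complexes, at 2924 and 3020 in the controls and 2570 and 2397 in the knockouts (log2 difference -0.26, SE 0.08, limma adjusted p = 0.0528).

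Among 14 tested genes of the methionine cycle and transsulfuration, 1 was called lower and 0 higher, with 5 at an unadjusted p under 0.05. Mmachc, which processes the cobalamin cofactor of methionine synthase, stood at 579 and 572 in the controls and at 406 and 312 in the knockouts, and fell by 0.69 on the log2 scale (SE 0.15, limma adjusted p = 0.0155). Of 8 serine synthesis and transport genes, Phgdh, the entry enzyme of serine synthesis, was called higher at 0.31 (SE 0.09, limma adjusted p = 0.0465), from 3277 and 2812 in the controls to 3807 and 3717 in the knockouts. The groups of Phgdh did not overlap, and of the fits that left out 1 library only the one without control 1 called it (limma adjusted p = 0.0318).

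In nucleotide synthesis, which uses folate carbon for purines and thymidylate, calls were few and went both ways. Of 11 purine genes, Gmps, which makes GMP, was called lower at -0.43 (SE 0.10, limma adjusted p = 0.0245), and none was called higher. Of 14 pyrimidine and deoxynucleotide genes, Ctps2, a CTP synthase, was called higher at 0.45 (SE 0.12, adjusted p = 0.0352 by limma), though not in the authors' deposited table, which calls none of this list higher. Dut, which makes the dUMP that thymidylate synthase converts, was called lower at -0.33 (SE 0.08, limma adjusted p = 0.0314), while Tyms itself stood at 0.29 (SE 0.15). Among 20 S phase genes, 2 were called higher and 3 lower, with a median of -0.01. The DNA clamp Pcna fell by 0.47 and the chromatin assembly factor Chaf1a by 0.62 on the log2 scale, while the uracil glycosylase Ung rose by 0.45 and the replicative helicase subunit Mcm2 by 0.37 (limma adjusted p = 0.00474, 0.00713, 0.0141 and 0.0195).

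In the aldehyde dehydrogenase family, to which the C-terminal part of ALDH1L1 is related, none of 16 other tested members had a difference as large as that of Aldh1l1. The highest was Aldh3b1 at 0.37 (SE 0.24), which was not called. Aldh1l1 was chosen with its difference in view, so this order is a description. Aldh2, the mitochondrial acetaldehyde enzyme, was called higher at 0.27 (SE 0.07, limma adjusted p = 0.0236), from 4906 and 4896 in the controls to 6016 and 5833 in the knockouts. Aldh1a2, a retinoic acid synthesis enzyme, was called lower at -0.40 (SE 0.07, limma adjusted p = 0.00793), from 3032 and 3132 to 2315 and 2370. With 1 library left out, Aldh1a2 was called only without control 1 (limma adjusted p = 0.0336), and Aldh2 in none of the fits.

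Genes of the ATF4 and amino acid response belong to a stress programme known to induce Mthfd2, Shmt2 and Aldh1l2 in other cells. Limma called 3 of 18 members higher (16.7%) and none lower, beside 3.28% and 13.5% of all tested genes. In this list 5 members were at an unadjusted p under 0.05, and the median log2 difference was 0.10. Ddit4, an inhibitor of mTORC1 signalling, rose by 0.59 (SE 0.08, limma adjusted p = 0.00138), from 1828 and 1926 in the controls to 2852 and 2816 in the knockouts. Eif4ebp1, a translation repressor, rose by 0.58 and Pck2, the mitochondrial PEP carboxykinase, by 0.46 (limma adjusted p = 0.0111 and 0.0276), and the authors' deposited table calls Ddit4 and Eif4ebp1 of this list. Atf4 itself had a difference of 0.03 (SE 0.09) and Asns, asparagine synthetase, of -0.04 (SE 0.09), both named after their values were seen. Atf3 was the only gene of the 116 with a larger fitted difference than Aldh1l1, at 1.54 (SE 0.53, limma adjusted p = 0.0848), and was not called.

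**Figure D4:**
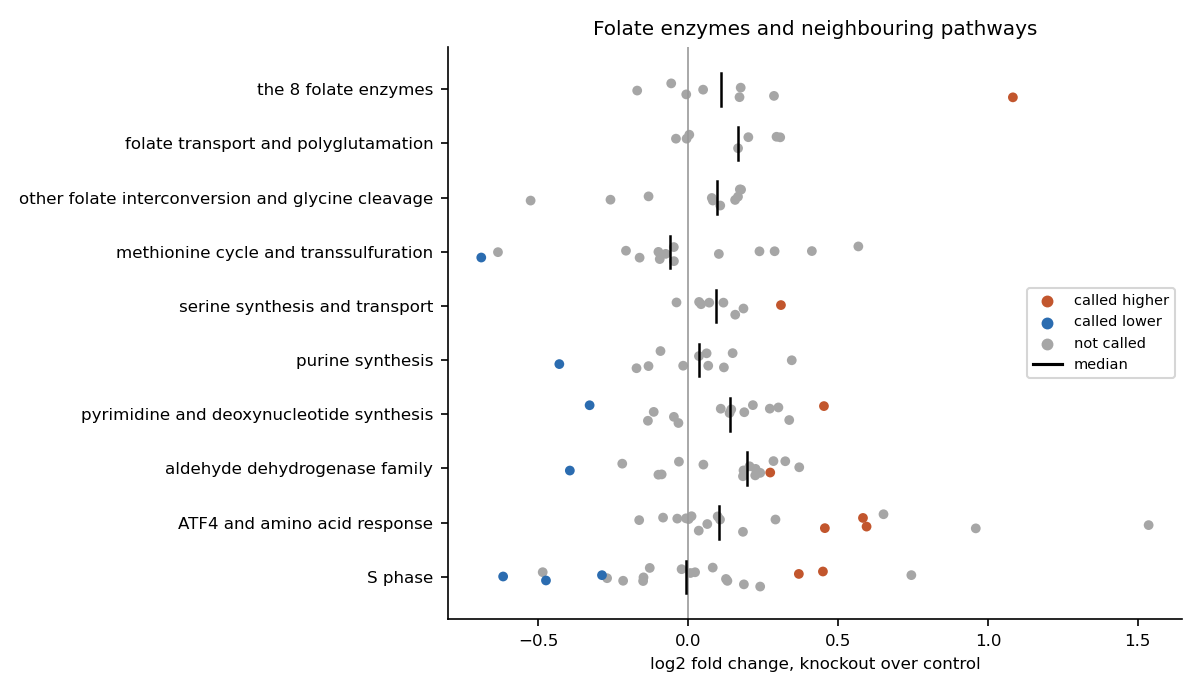
Log2 difference of knockout over control (horizontal axis) for the 8 folate enzymes (top row) and for the tested genes of 9 neighbouring pathway lists, 1 point per gene with random vertical jitter. Orange points were called higher, blue points lower and grey points neither by limma, and black bars are medians. Aldh1l1 at 1.08 stands to the right of all other points except Atf3 at 1.54, which was not called.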

How the data were processed

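RNA sequencing of whole testes at postnatal day 16 was analysed in 4 libraries, 2 per group. Bowtie2, DESeq2, cutadapt and featureCounts with the mm39 build stand in the submitters' processing notes, without versions, roles or a strand setting. The deposited signal per library is a read count divided by 1 size factor: within 1e-06, 100% of values were whole multiples of the smallest value of the library, and these multiples are called reads. Per the file headers, each gene in the authors' table also has a log2 fold change, its standard error and test score, and a p-value with its adjusted form.

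The test was limma (version 3.58.1, R 4.3.3) with the mean-variance trend on, fitted to log2(value + 1) of the 17480 genes whose mean reached 10; calls required a Benjamini-Hochberg adjusted p under 0.05. It was also run on simulated counts in which all genes shared a single setting of spread. That run does not measure how often the calls here are wrong. Variances drew on 6.3 prior and 2 residual degrees of freedom, so p-values rest largely on variance pooled over genes and measure only the spread between these samples. Fold changes on this scale understate those of low genes. The enzymes and lists were chosen with earlier results of these data known. Listed symbols missing from the table were matched through RefSeq synonyms, which renamed 3 (Adss1, Adss2 and Ctps1). Named genes were the 8 enzymes, up to 4 called members of each pathway list by size of difference (or the 2 most abundant where none was called), the 3 most abundant Sertoli, spermatogonial and pachytene markers, the 3 genes most like the enzymes with the highest and lowest difference (Aldh1l1 and Mthfd1l; predicted and unnamed genes left out), and Hsf5. Other genes were named after their values were seen. One gene that this rule names is not reported here.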

Additional observations from a re-analysis of the deposited data

How the results depend on the processing

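Pseudocounts of 0.5 and 8, a filter at a mean of 100 and the authors' deposited test, added after seeing the data, left the counts over all genes, all pathway genes, all markers and the 8 enzymes within 1.5 times those reported. Counts within single lists could move more, as for spermatogonial markers called higher, 4 by limma and 2 in the authors' deposited test. No paired analysis was possible because the analysed libraries of the 2 groups share only 1 replicate number. The planned edgeR, DESeq2 and TMM alternatives were not run. Counts below are higher, then lower. Without a filter on low values limma called 37 and 815 genes in all, 1 and 3 of the pathway genes and 0 and 11 of the markers. Scaled to library totals it called 1511 genes higher in all, 15 pathway genes and 21 markers. Scaled to the summed Sertoli markers it called 60 and 4546 genes, 1 and 25 pathway genes and 1 and 31 markers; the Sertoli markers set that scaling. Without the mean-variance trend it called 0 and 40 genes, 0 and 0 pathway genes, 0 and 0 markers and 0 of the 8 enzymes, with 1456 and 2827 genes, 9 and 6 pathway genes, 13 and 21 markers and 1 enzyme (Aldh1l1) at an unadjusted p under 0.05. With 1 library left out, where the lone library of a group is assumed to vary like the other group, the ranges were 31 to 337 and 889 to 2096 genes, 1 to 7 and 0 to 4 pathway genes, 0 to 5 and 16 to 23 markers, with the lowest counts without control 2, alone or tied. At an unadjusted p under 0.05, 11 and 10 pathway genes and 13 higher markers remained without control 2. Aldh1l1 stayed between 0.84 and 1.26 on the log2 scale in all settings run. The cause of these changes was not tested. Depth limits Aldh1l2, with 9 to 18 reads per library.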
